A study of Mus musculus with 26 samples.

Results

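All-trans retinoic acid (ATRA) was given to mouse myeloid progenitors transformed by MN1, and total RNA was sequenced from 3 libraries with and 3 without the drug. These 6 libraries are the ones titled MN1 CTL (control) among 26 samples of the series, and all 14663 genes that passed a filter on low counts are described. The cells have a C57BL/6 background, and the strain entry "CreERT2-;LSD1TM1Schuele", which names an allele of Lsd1 (Kdm1a), is the same for control and knockout samples. Neither clone numbers nor the animals behind the cultures are given. The cells grew in DMEM with 15% FCS, mouse IL-3, human IL-6 and mouse SCF, and the treated libraries received 1 µM ATRA for a time that the labels leave out. For comparison, 2 other pairs of groups were used, each 3 libraries with against 3 without ATRA: LSD1 knockout cells of the same MN1 model (MN1 KO), which received 0.1 µM 4-hydroxytamoxifen for 72 hours, and control cells transformed by Hoxa9 and Meis1 (H9M CTL). The labels list no tamoxifen for either control, and whether controls had a vehicle is not stated. Whether the 3 libraries of a group are separate cultures is not stated either, so p-values measure the spread between these libraries only.

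ATRA is the ligand of the nuclear receptors RARα, RARβ and RARγ, which bind DNA as dimers with RXR proteins at retinoic acid response elements and exchange corepressors for coactivators when ligand binds. The best known early targets form a feedback loop: enzymes that break retinoic acid down (the Cyp26 family), a reductase that drains its precursor (Dhrs3) and one receptor (Rarb). In acute promyelocytic leukaemia ATRA drives blasts to mature into granulocytes. MN1 is a transcriptional coregulator whose overexpression transforms mouse progenitors, and leukaemias with high MN1 are known for a poor response to ATRA.

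Total counts were 26280735 to 30964298 per library in the 6 MN1 CTL libraries. Levels are given in CPM, the count scaled to the total of its library, in the order of replicates 1, 2 and 3. A gene was called at a Benjamini-Hochberg adjusted p under 0.05 in edgeR's quasi-likelihood test (two-sided, over all 14663 genes). "SE" is the absolute log2 fold change divided by the square root of that test's F value. It stands in for a standard error, which was not estimated directly, and can be too small for genes with few counts. The SE of a difference need not follow from those of its 2 effects. The untreated cultures held RNA of stem and progenitor genes: Kit stood at 337, 348 and 342 CPM, Cd34 at 2037, 2059 and 2145 CPM and Flt3 at 341, 338 and 340.3 CPM. They also held RNA of primary granule genes, with Mpo at 1054, 1101 and 1058 CPM and Ctsg at 554, 609.5 and 577 CPM. The monocyte receptor gene Ccr2 stood at 513, 494 and 499 CPM, and the mast cell gene Cpa3, given below, was also high. RNA of Kdm1a, which encodes LSD1, was 187, 193 and 192 CPM without and 203, 192 and 196 CPM with ATRA, and it was 1.41, 1.28 and 1.58 CPM in the untreated knockout libraries. Mn1 was 54.9, 63.5 and 59.4 CPM without and 65.5, 72.3 and 68.9 CPM with ATRA, which did not pass the test (log2 0.19, SE 0.07, adjusted p = 0.068). Mn1 was called higher, at log2 0.19 to 0.24, under 4 alternatives: no filter on low counts (adjusted p = 0.0065), limma-voom (0.021), only the groups compared (0.0075) and without replicate 2 of the untreated libraries (0.047).

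With ATRA, 3199 of the 14663 genes were called (21.8%): 1669 higher (11.4%) and 1530 lower (10.4%). Most of these changes were small, with a median absolute log2 fold change of 0.258, and 2393 of the called genes (74.8%) moved by less than 0.5 on the log2 scale. Past 2-fold the response was one of gain, with 277 genes higher (1.89% of those tested) and 63 lower (0.43%), and past 4-fold 81 were higher and 12 lower. Of the 277, 72 had a mean of at least 5 CPM with ATRA, 93 lay between 1 and 5 CPM and 112 were under 1 CPM. Replicate 1 of the ATRA libraries held the highest value for 127 of the 277 genes, replicate 2 for 79 and replicate 3 for 71. Without replicate 1 of the untreated libraries the number of genes called lower was 1002 rather than 1530. Counts of called members in the gene lists below stand beside 11.4% higher and 10.4% lower over all genes tested.

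**Figure D1:**
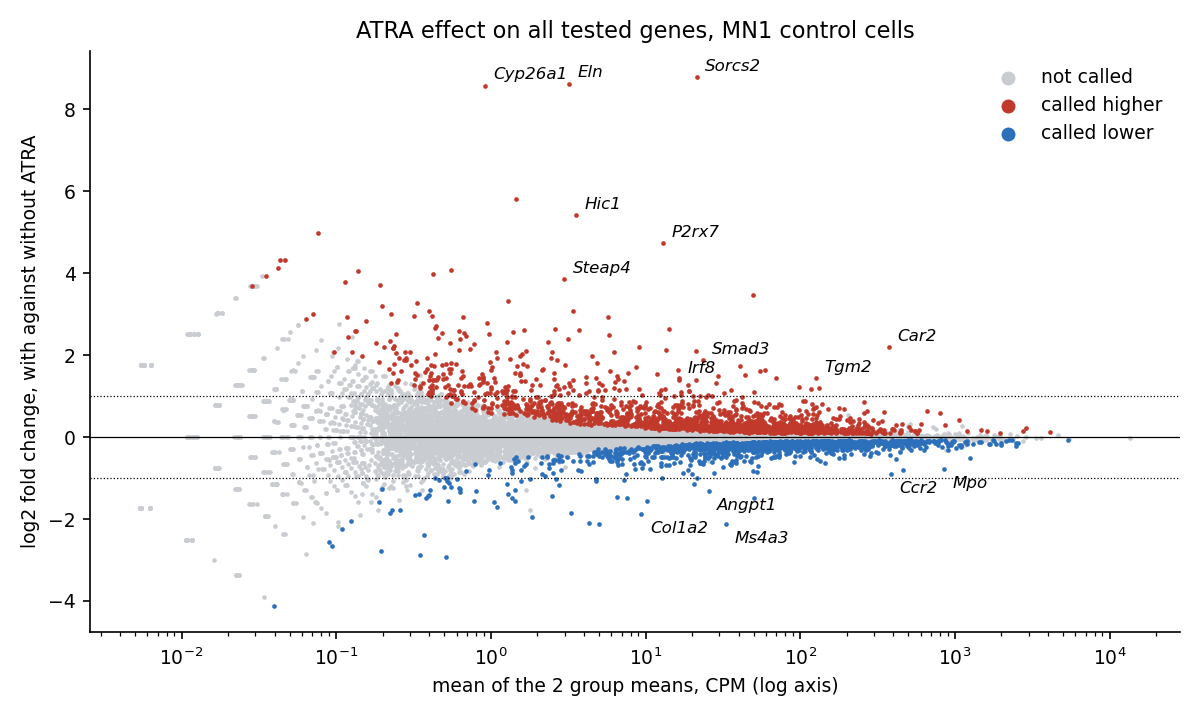
Log2 fold change with against without ATRA (y axis) by mean level in CPM (x axis, log scale) for each gene tested in MN1 CTL cells, grey not called, red called higher and blue called lower; dotted lines mark 2-fold, and genes at 0 in all 6 libraries are not drawn. The points above the upper line (277 called genes) outnumber those under the lower one (63), and Sorcs2, Eln, Cyp26a1 and Hic1 stand highest among the labelled genes. The height of Eln and Cyp26a1, with at most 1 untreated count, depends on the small count added in the fit.

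The retinoid receptors themselves moved little. Of 15 tested receptors and coregulators, 6 were called higher and none lower, with a median log2 change of 0.13. Rarg rose from 21.1, 21.3 and 19.5 to 28, 23.8 and 26.4 CPM (log2 0.32, SE 0.06, adjusted p = 1.7e-04), with no overlap between the groups. Rara, the receptor fused to PML in promyelocytic leukaemia, stood at 25.5, 23.9 and 22.2 CPM without and 32.6, 26.4 and 27.2 CPM with ATRA (log2 0.25, adjusted p = 0.0081). The call of Rara was lost when replicate 1 of the ATRA libraries or replicate 3 of the untreated ones was left out. Among RXR partners, Rxrb stood at 90.7, 95.9 and 92.2 CPM and was not called (log2 0.03, adjusted p = 0.64), Rxrg had no count in the 6 libraries, and Rxra was nearly silent. Rxra had 0.377, 0.0969 and 0.393 CPM without and 0.0982, 0.205 and 0.266 CPM with ATRA (12 counts or fewer in each library), whereas untreated H9M libraries held 26.2, 28.2 and 26.5 CPM. In the library names all MN1 libraries carry one LR number and all H9M libraries another, whose meaning the labels leave out, so it cannot be told apart from the model in such levels, whereas each ATRA effect lies within 1 LR number. Coactivator Ncoa3 rose from 78.5, 83.6 and 81.2 to 119, 118 and 122 CPM (log2 0.54, SE 0.04, adjusted p = 8.6e-12), and its effect was 0.55 in H9M and 0.57 in MN1 KO cells. The corepressor Ncor1 (log2 0.16), the acetyltransferase Ep300 (0.21) and the corepressor Nrip1 (0.29) were also called higher, and all 3 lost the call when at least 1 library was left out: Ncor1 without replicate 1 or 2 of the ATRA libraries or replicate 1 of the untreated ones, Ep300 without the latter, Nrip1 without replicate 2 of the ATRA libraries.

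Of the 3 enzymes of the Cyp26 family, which remove retinoic acid, 2 rose from a very low base. Cyp26a1, which oxidises retinoic acid (19:37697738-37701536 in GRCm38), had no count in any untreated MN1 CTL library and 77, 48 and 36 counts with ATRA, or 2.52, 1.64 and 1.37 CPM, at least 54.9-fold higher against a floor of 3 counts over the untreated group (adjusted p = 3.8e-09). Cyp26b1, its relative, rose from 1.02, 1.23 and 1.11 to 2.88, 2.5 and 2.21 CPM (log2 1.15, SE 0.22, adjusted p = 2.7e-04). The third member, Cyp26c1, had 0 counts without ATRA and 1, 3 and 0 counts with it, and was not called. Dhrs3, a reductase that turns retinaldehyde back into retinol, rose from 32, 31.5 and 31.5 to 53.4, 51 and 51.9 CPM (log2 0.70, SE 0.04, adjusted p = 1.1e-13). On the synthesis side, Aldh1a3, which makes retinoic acid from retinaldehyde, rose from 39.1, 43.7 and 42.1 to 61.1, 64.8 and 64.3 CPM (log2 0.58, SE 0.05, adjusted p = 3.4e-11). Rdh10, which makes retinaldehyde from retinol, was the 1 called lower, at 11.2, 9.85 and 10.6 CPM without and 9.23, 8.38 and 8.52 CPM with ATRA, and lost the call without replicate 2 or 3 of the ATRA libraries or replicate 1 or 3 of the untreated ones. In all, 5 of 13 tested members of the retinoid metabolism list were called higher and 1 lower. Rdh11, Rdh12, Rdh13, Rdh14, Dhrs9, Cyp26c1 and Bco1 were not called, and 10 of the 23 listed genes, among them Lrat, Crabp1, Crabp2 and Aldh1a1, were too low to be tested.

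Of 14 tested retinoic acid response genes, 9 were called higher and none lower, 6 of them past 2-fold, with a median log2 change of 0.92 (median over all genes tested, 0). Without replicate 3 of the ATRA libraries or replicate 2 of the untreated ones, 1 member was called lower. Hic1, a transcriptional repressor, had 0.113, 0.194 and 0.164 CPM without and 11.4, 4.41 and 5.06 CPM with ATRA (log2 5.41, SE 0.42, adjusted p = 2.6e-11). Its treated libraries were spread widely, with replicate 1 more than the other 2 together, but all were far above the untreated ones. Tgm2, tissue transglutaminase, rose from 68.8, 68.4 and 65.2 to 183, 188 and 185 CPM (log2 1.43, SE 0.05, adjusted p = 4.1e-20). Cd38, an NAD glycohydrolase of the leukocyte surface, rose from 0.604, 0.807 and 0.884 to 4.61, 3.66 and 3.46 CPM (log2 2.32, SE 0.17, adjusted p = 4.7e-12). Rarb, a textbook target in many cells, showed no such rise: it stood at 0.377, 0.226 and 0.36 CPM without and 0.262, 0.274 and 0.342 CPM with ATRA (log2 -0.15, SE 0.39, adjusted p = 0.84). In H9M control cells the same gene went from 0.0771, 0.177 and 0.157 to 11.5, 10.7 and 10.1 CPM, and the difference between the effects was -6.43 on the log2 scale (SE 0.56, adjusted p = 5.6e-10). Zfp703 (464, 458 and 449 CPM without, 408, 443 and 450.0 CPM with ATRA), Cebpe and Cyp26c1 were also among those not called, although limma-voom called Zfp703 lower (log2 -0.10, adjusted p = 0.035). Listed genes Stra6, Stra8, Crabp2, Lrat, Hoxb1 and Ccr9 were too low to be tested.

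**Figure D2:**
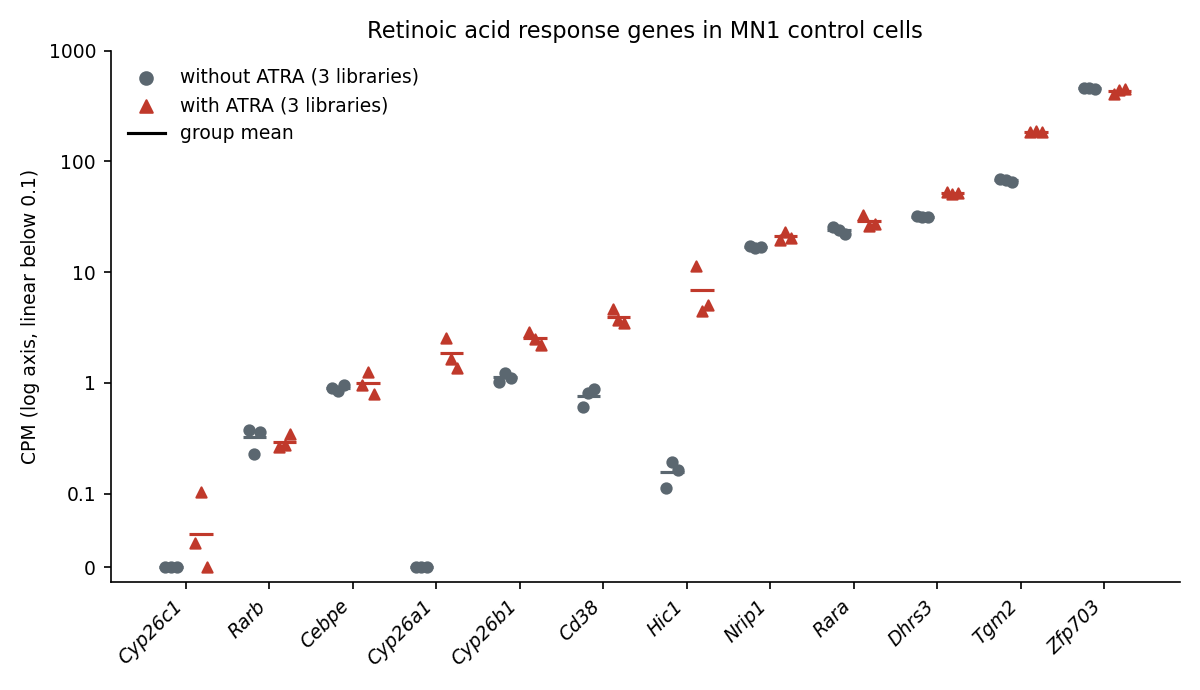
Level in CPM (y axis, log scale with a linear stretch under 0.1) of 12 of the 14 tested retinoic acid response genes in each MN1 CTL library, grey circles without and red triangles with ATRA, with a bar at each group mean. Cyp26a1 goes from 0 to between 1.37 and 2.52 CPM and Hic1 to between 4.41 and 11.4 CPM, whereas the groups of Rarb and of Zfp703 overlap.

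Cyp26a1 and Rarb are shown here because both hold a match to the same kind of retinoid element next to a RefSeq start site, and 1 was called and the other not. RefSeq promoter windows (250 bases before to 50 after a start site, GRCm38.p6) were searched on both strands for direct repeats of a 6-base unit in any combination, where a unit could read AGGTCA, which is the consensus form, or GGGTCA, or as other forms AGTTCA, or lastly GGTTCA, spaced by 5 (DR5), 2 (DR2) or 1 (DR1) bases. The 250 bases before the start are printed 5′ to 3′ in the direction of the gene, with the DR5 match in capitals, for Cyp26a1 at chr19:37697558-37697807 on the plus strand and for Rarb at chr14:16575477-16575726 on the minus strand.
Cyp26a1: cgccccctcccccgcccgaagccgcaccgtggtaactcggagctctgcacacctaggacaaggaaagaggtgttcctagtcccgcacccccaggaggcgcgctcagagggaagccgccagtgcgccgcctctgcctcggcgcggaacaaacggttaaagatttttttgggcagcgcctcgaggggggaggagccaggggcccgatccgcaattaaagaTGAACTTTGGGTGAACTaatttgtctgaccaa
Rarb: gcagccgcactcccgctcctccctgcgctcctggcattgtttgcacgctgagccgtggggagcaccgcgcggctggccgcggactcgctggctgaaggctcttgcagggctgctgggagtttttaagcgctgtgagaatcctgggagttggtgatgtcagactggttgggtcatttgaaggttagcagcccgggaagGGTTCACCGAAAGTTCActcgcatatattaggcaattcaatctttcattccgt
The start site of the Cyp26a1 window is 70 bases inside the gene's RefSeq span given above, and the match lies 32 to 16 bases before that site, and so within the span, and reads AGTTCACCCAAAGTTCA on the other strand. The Rarb window belongs to an internal start site, 506855 bases inside the RefSeq span of the gene (14:16430839-17082331), and the match lies 53 to 37 bases before that site. A DR5 match was found for 31 of the 27025 genes with a window (0.115%), and a match of any of the 3 spacings for 186 (0.688%). Over the tested genes with a window these were 6 (0.0582%) and 48 of 10316 (0.465%). Among the genes called higher at 2-fold, 199 of the 277 had a window, and 3 of them held a match (1.51%): Cyp26a1, Hbb-y and Tinagl1, the last by DR2. None of the 15 largest rises that had a window held one, nor any of 43 genes called lower at 2-fold that had one. A match of letters is not a measured binding site, and elements farther from the start were not searched.

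The largest rises among genes of at least 5 CPM were led by Sorcs2, a sorting receptor of the VPS10 family. It had 0.189, 0 and 0.0983 CPM without and 47, 42.1 and 38.8 CPM with ATRA (5:36017180-36398197; log2 8.78, SE 0.19, adjusted p = 3.4e-24). Eln, which encodes elastin, had 1 count over the untreated libraries and 9.29, 5.3 and 4.68 CPM with ATRA, a ratio with a 95% counting interval of 103 to 22730. P2rx7, the ATP-gated channel of macrophages that triggers inflammasome activation, rose from 0.83, 1.13 and 0.819 to 30.7, 22.4 and 22.4 CPM (log2 4.73, SE 0.14, adjusted p = 9.8e-21). In each of the 3 the untreated libraries were at or under 1.13 CPM, and replicate 1 was the highest of the treated libraries. Steap4, a metalloreductase, rose by 3.85 on the log2 scale (SE 0.34), and Rap1gap2, which inactivates the small GTPase Rap1, by 3.08 (SE 0.18). Genes with more RNA at the start were also induced. Car2, carbonic anhydrase II, went from 143, 125 and 132 to 637, 597 and 632 CPM (log2 2.20, SE 0.05, adjusted p = 2.6e-23). Camkk1, a kinase that activates calmodulin-dependent kinases, went from 4.3, 4.07 and 3.31 to 25.9, 24.1 and 23.7 CPM (log2 2.64, SE 0.10).

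Among the other large rises, Cd300lf, an inhibitory receptor of myeloid cells, rose from 1.7, 2.2 and 1.31 to 9.69, 10.4 and 9.55 CPM (log2 2.48, SE 0.12). Napsa, an aspartic protease, rose from 1.96, 2.71 and 2.42 to 11.4, 9.54 and 9.7 CPM (log2 2.08, SE 0.09). Rab37, a GTPase of secretory granules, rose from 18.3, 18.8 and 18.7 to 65.6, 63.4 and 59.9 CPM (log2 1.74, SE 0.06). The RefSeq span of Cd300lf (11:115116214-115135372) lies within that of Rab37 (11:115091331-115162773), and whether they share reads was not tested. Hlx, a homeobox factor of haematopoietic cells, rose from 30.2, 27.9 and 27.1 to 91.4, 85.9 and 92.2 CPM (log2 1.64, SE 0.06). In all of these the lowest treated library was above the highest untreated one, as the rule for naming them required. Also among the 25 were Pacsin1, Upk1b, Gvin1, Timp3, Sema3a, Smoc1, Grtp1, Osgin1, Cdh23 and Col6a3, with log2 changes from 1.62 to 2.94, besides Hic1 and Smad3.

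Smad3 belongs to the TGF-β pathway, in which SMAD proteins carry the signal of TGF-β receptors to the nucleus. Of 21 genes of that list 8 were called higher and 4 lower, with a median log2 change of 0.26. Smad3 rose from 10.4, 9.66 and 9.86 to 40.4, 36.6 and 34.5 CPM (log2 1.88, SE 0.06, adjusted p = 7.4e-20), while Smad2, which carries the signal beside it (log2 -0.06), and the inhibitory Smad7 (-0.08) were not called. Ltbp3, which binds latent TGF-β in the matrix, rose from 28.2, 26.2 and 25.3 to 84.2, 82.5 and 81.9 CPM (log2 1.62, SE 0.07), and Tgfbi, a matrix protein induced by TGF-β, from 37.4, 38.1 and 39.1 to 63.3, 69.9 and 72.9 CPM (log2 0.82, SE 0.05). The ligand moved the other way: Tgfb1 fell by 0.18 on the log2 scale (SE 0.05, adjusted p = 0.0039) and Ltbp1 by 0.42 (SE 0.08). The other 2 called lower, Tgfbr3 and Smad4, each lost the call without at least 1 library, and without replicate 1 of the ATRA libraries 2 members, not 4, were called lower. Smad3 rose by 1.81 in H9M and 2.17 in MN1 KO cells, and neither difference from MN1 CTL was called (0.07, SE 0.09, and -0.29, SE 0.10).

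The falls were smaller than the rises. Ms4a3, a marker of granulocyte and monocyte progenitors, dropped from 47.6, 53.5 and 59.5 to 10.7, 12.9 and 14.1 CPM (19:11629499-11640851; log2 -2.12, SE 0.08, adjusted p = 5.5e-19), the largest fall among genes of at least 5 CPM. Mcpt8, a basophil protease, fell from 8.22, 8.07 and 8.09 to 1.83, 1.95 and 1.94 CPM (log2 -2.11, SE 0.11, adjusted p = 1.0e-15), and Gzmb, granzyme B, from 7.17, 6.91 and 6.91 to 2.06, 1.74 and 1.14 CPM (log2 -2.09, SE 0.15, adjusted p = 4.3e-10). In each of these every treated library lay below all the untreated ones, as the rule for naming them required. Col1a2, a collagen chain, fell from 13.5, 15.1 and 15.6 to 3.34, 4.27 and 4.72 CPM (log2 -1.87, SE 0.12). Slco3a1, an organic anion transporter, fell from 72.1, 73.7 and 74.4 to 25.1, 28.6 and 26.8 CPM (log2 -1.48, SE 0.05, adjusted p = 1.2e-19). Met, the receptor of hepatocyte growth factor, fell from 26.9, 28.6 and 28.7 to 10.6, 13.6 and 14.8 CPM (log2 -1.14, SE 0.07), and Angpt1, a TIE2 ligand made by stem and progenitor cells, from 40.3, 36.2 and 33 to 14.5, 16.3 and 13.6 CPM (log2 -1.32, SE 0.09). Cd33, a sialic acid receptor of myeloid cells, fell by 0.91 (SE 0.11) and St6gal1, which adds sialic acid, by 1.05 (SE 0.10) on the log2 scale. Also among the 25 were Htr1b, Smpd3, B3gnt5, St14, Cyp2j6, Cma1, Tmem251, Lyz2, Tle1, Ccr2, Tmem156, Homer2, Tgm3, Zfp608, Ctsg and Amot, with log2 changes from -1.85 to -0.80.

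Of 10 genes listed for primary granules, which promyelocytes and early monocytes make, 5 were called lower and 2 higher. The list takes in Ms4a3, a progenitor marker, and Serpinb1a, a protease inhibitor, which were among the 5. In bulk RNA, fewer cells of a type and less RNA per cell cannot be told apart. Mpo, myeloperoxidase, went from 1054, 1101 and 1058 to 651, 622 and 620.5 CPM (log2 -0.79, SE 0.04, adjusted p = 7.7e-17) and Ctsg, cathepsin G, from 554, 609.5 and 577 to 345, 336 and 336 CPM (log2 -0.80, SE 0.04, adjusted p = 9.5e-17). Serpinb1a fell by 0.40 on the log2 scale (SE 0.03). Prtn3, proteinase 3, went against the others, from 29, 29.8 and 25.4 to 62.1, 51.6 and 53 CPM (log2 0.96, SE 0.07, adjusted p = 1.4e-12). Its neighbour Elane, neutrophil elastase, stood at 48.7, 53.1 and 47.1 CPM without and 57.8, 47.5 and 49 CPM with ATRA and was not called. Prss57 was the other called higher, and without replicate 1 or 3 of the ATRA libraries or replicate 2 of the untreated ones it lost that call, which left 1. Prss57 also lost it with every library kept in limma-voom (adjusted p = 0.052) and in edgeR with only the groups compared (adjusted p = 0.053). The summed level of the 10 genes was 2733 to 2810 CPM without and 1987 to 2002 CPM with ATRA.

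Of 18 tested genes of neutrophil maturation, 4 were called lower and 2 higher, beside 10.4% and 11.4% over all genes tested. The 2 called higher were Lcn2 and Hp. Neither was called without replicate 2 or 3 of the ATRA libraries or replicate 3 of the untreated ones, and 1 was called without replicate 1 of either group. With only the groups compared neither Lcn2 (adjusted p = 0.078) nor Hp (0.086) was called by edgeR, and Hp was not called by limma-voom either (adjusted p = 0.067). Mmp8, neutrophil collagenase, fell from 11.9, 11.9 and 13.1 to 9.62, 7.35 and 8.07 CPM (log2 -0.58, SE 0.09, adjusted p = 1.9e-05) and Csf3r, the G-CSF receptor, from 41.5, 46.4 and 40.9 to 37.6, 35 and 35.5 CPM (log2 -0.28, SE 0.06). S100a8 and Ngp were called lower too. S100a8 lost the call without replicate 1 of the ATRA libraries or replicate 2 of the untreated ones. Ngp lost it in DESeq2 (adjusted p = 0.051) and without replicate 3 of the ATRA libraries. Of the genes that mark mature neutrophils, Fpr1 and Fpr2 had no count in any of the 6 libraries, Camp, Chil3 and Retnlg were too low to be tested, and S100a9 stood at 1.13, 1.42 and 0.852 CPM without and 0.622, 0.923 and 0.951 CPM with ATRA.

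Monocyte and macrophage markers split. Of 22 tested, 6 were called higher and 4 lower. Irf8, the transcription factor of the monocyte and dendritic lineage, rose from 8.94, 9.11 and 8.81 to 25.8, 22.3 and 23.8 CPM (8:120736358-120756694; log2 1.40, SE 0.06, adjusted p = 4.6e-17). Adgre1, the gene of the macrophage marker F4/80, rose from 47.8, 55.9 and 54.5 to 108, 81.8 and 78.2 CPM (log2 0.74, SE 0.08, adjusted p = 9.9e-09). Mpeg1, perforin-2, rose by 0.73 (SE 0.10) and Cd163, a haemoglobin scavenger receptor, by 0.48 (SE 0.06) on the log2 scale. Ccr2, the receptor that draws monocytes to CCL2, fell from 513, 494 and 499 to 237, 297 and 281 CPM (log2 -0.91, SE 0.08, adjusted p = 1.8e-10). Lyz2, lysozyme, fell from 15.4, 19.2 and 15.9 to 9.36, 7.97 and 8.49 CPM (log2 -0.99, SE 0.08), F13a1 by 0.52 (SE 0.04) and Ly6c2, which marks classical monocytes, by 1.07 (SE 0.14). Defining genes of mature macrophages stayed near 0: Csf1r was at 0.189, 0.0646 and 0.164 CPM without and 0.164, 0.205 and 0.228 CPM with ATRA, and C1qa, C1qb, C1qc and Marco had no count in any of the 6 libraries. The summed level of the 22 tested and 8 untested genes was 842.8 to 843.6 CPM without and 593 to 643 CPM with ATRA. Ccr2 alone made up 513, 494 and 499 CPM of the sum without and 237, 297 and 281 CPM with ATRA.

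**Figure D3:**
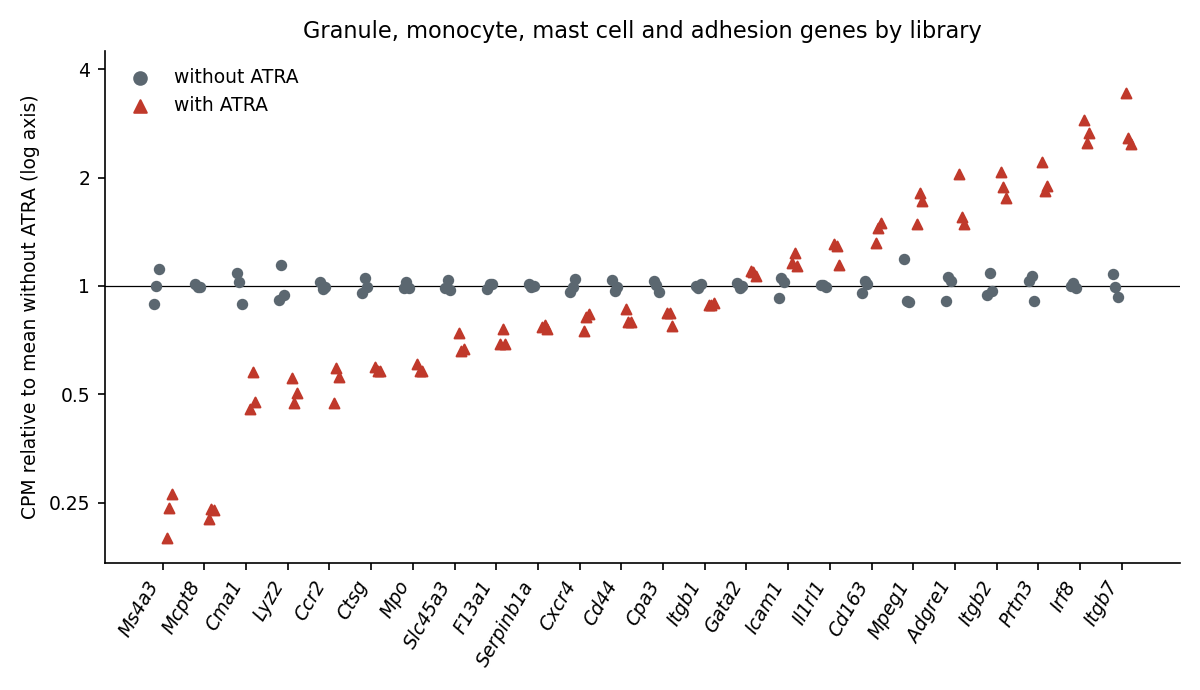
CPM in each MN1 CTL library divided by the mean of the untreated libraries (y axis, log scale) for 24 named genes of the primary granule, monocyte, mast cell and adhesion lists with at least 5 CPM, ordered by effect, grey circles without and red triangles with ATRA. Ms4a3 and Mcpt8 fall the farthest and Irf8 and Itgb7 rise the most, and replicate 1 is the uppermost triangle for Itgb7 and Adgre1.

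Of 7 subunits of the phagocyte oxidase, which makes superoxide, 4 were called higher and none lower: Ncf1 from 52, 52.7 and 53.7 to 99.9, 93.7 and 86.9 CPM (log2 0.80, SE 0.04, adjusted p = 1.8e-16), Cyba by 0.36 (SE 0.04), Rac2 by 0.29 (SE 0.03) and Ncf4, whose call was lost without replicate 1 of the ATRA libraries. The catalytic subunit Cybb was near 0 in all 6 libraries (0.0755, 0.0969 and 0.0328 CPM without, 0, 0.0684 and 0.0761 CPM with ATRA). Among MHC class II and dendritic cell genes 5 of 12 were called higher and none lower, with H2-Ab1 going from 60.7, 61.1 and 56.9 to 95.5, 94.4 and 89.3 CPM (log2 0.62, SE 0.05, adjusted p = 2.8e-11). Its partner chain H2-Aa rose too but stayed under 1 CPM, and Ciita, the master regulator of the class II genes, was too low to be tested.

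Of 22 tested adhesion and chemoattractant receptors 8 were called higher and 4 lower. Itgb7, an integrin chain of gut-homing leukocytes, rose from 16.7, 15.3 and 14.4 to 53, 39.7 and 38.4 CPM (log2 1.48, SE 0.09, adjusted p = 4.9e-14). Itgb2, the chain shared by the leukocyte integrins, rose from 25.2, 29 and 25.7 to 55.3, 50.3 and 46.9 CPM (log2 0.91, SE 0.05). In both the treated libraries were all higher than the untreated ones. Cxcr4, the CXCL12 receptor that holds progenitors in the marrow, fell by 0.34 (SE 0.04), Cd44 by 0.31 (SE 0.04) and Itgb1 by 0.19 (SE 0.03), besides Ccr2. Of 26 cytokine receptor genes 6 were called higher and 6 lower, with Ifngr1, the interferon-γ receptor, from 79.1, 88.5 and 86.7 to 138, 132 and 130.5 CPM (log2 0.63, SE 0.03) and Il6ra, which binds the IL-6 of the medium, from 5.28, 5.01 and 4.62 to 3.4, 3.66 and 3.04 CPM (log2 -0.57, SE 0.10).

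Of 26 interferon response genes, 9 were called higher and none lower, with a median log2 change of 0.52. Irf1 rose from 11.2, 11.1 and 10.9 to 24.1, 22.4 and 22.2 CPM (log2 1.03, SE 0.07, adjusted p = 4.8e-13) and Rsad2, viperin, from 9.58, 8.72 and 7.66 to 15.3, 15.5 and 15.3 CPM (log2 0.81, SE 0.09, adjusted p = 8.4e-08). Irf9, a subunit of the interferon-activated factor ISGF3, rose by 0.44 (SE 0.08). The summed level of the list was 145 to 155 CPM without and 180.0 to 182 CPM with ATRA, while Ifit1, Ifit3 and Cxcl10 stayed under 1 CPM and were not called. Immediate early and stress genes were called higher for 7 of 17 and lower for none (3 without replicate 3 of the untreated libraries), with Fos at 1.62, 2.42 and 1.57 CPM without and 3.5, 3.32 and 7 CPM with ATRA (log2 1.24, SE 0.29, adjusted p = 0.0022) and Ier3 at 29.5, 30 and 26.9 and 47.3, 35.8 and 38.4 CPM (log2 0.47, SE 0.08).

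**Figure D4:**
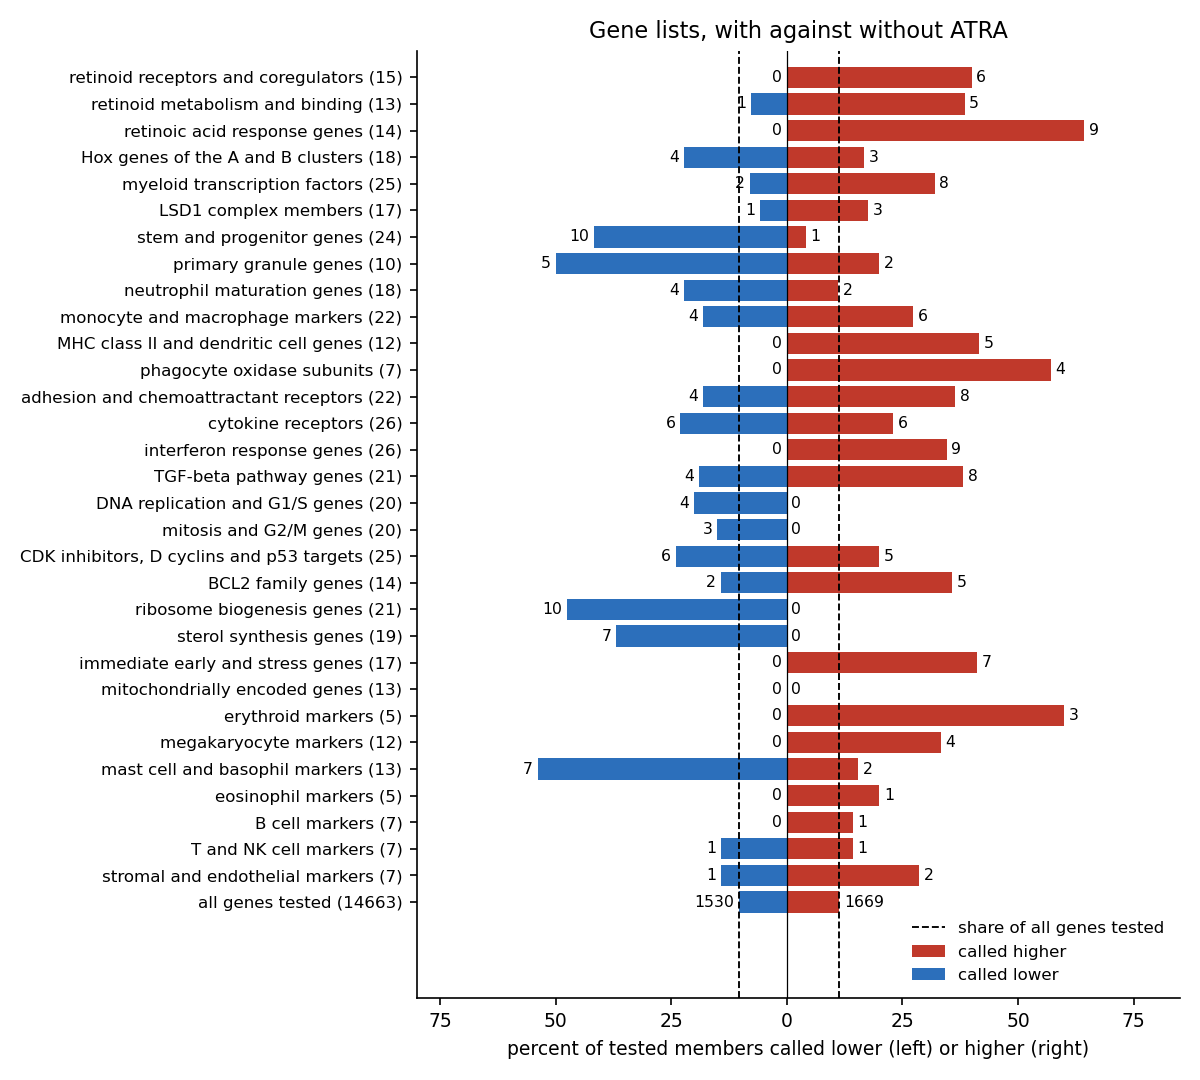
Percent of the tested members of each gene list (number tested in brackets) called higher (red, right) or lower (blue, left) with ATRA in MN1 CTL cells, with the counts beside the bars and dashed lines at the shares over all genes tested. The retinoic acid response list has the longest red bar (9 of 14), and the mast cell and basophil, primary granule, ribosome biogenesis and stem cell lists have the longest blue ones. In the Hox list the red bar comes from Meis2, Meis3 and Pbx2, which are not Hox genes.

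In the lists with no call in 1 direction, an unadjusted p under 0.05 in edgeR was reached there by 2 retinoic acid response genes (lower), by 1 oxidase, 1 interferon, 1 B cell and 1 mitochondrially encoded gene (lower) and by 1 mitosis gene (higher). In those directions limma-voom called 1 retinoic acid response gene lower and 1 mitosis gene higher, and DESeq2 called none of the retinoid, oxidase, interferon, mitosis or mitochondrially encoded genes.

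Transcription factors of myeloid cells were called higher for 8 of 25 and lower for 2. Beside Irf8, Nfe2 rose from 114, 124 and 112 to 150.5, 151 and 154 CPM (log2 0.36, SE 0.04) and Cebpa, the factor that starts granulocyte and monocyte fate, from 208, 219 and 212 to 241, 250.2 and 249 CPM (log2 0.19, SE 0.04, adjusted p = 1.5e-04). Id2, an inhibitor of E proteins, fell from 11.2, 10.7 and 10.4 to 6.81, 6.63 and 5.71 CPM (log2 -0.77, SE 0.08, adjusted p = 4.1e-09), and Runx2 by 0.24 (SE 0.05). Spi1, which encodes PU.1, was not called (log2 0.11, SE 0.04, adjusted p = 0.079), nor was Gfi1b (log2 -0.09). Gfi1, a repressor that recruits LSD1, had a log2 change of 0.14 (SE 0.04, adjusted p = 0.0082), a call lost without replicate 1 of the untreated libraries. Of 17 tested LSD1 complex members 3 were called higher and 1 lower, beside 11.4% and 10.4% over all genes tested. Gse1 (0.33) and Zfp217 (0.19) were the others called higher. The 1 called lower, Hdac2, lost its call without replicate 1 of the untreated libraries.

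Stem and progenitor genes were called lower for 10 of 24, all but Angpt1 by less than 0.5 on the log2 scale. Myb went from 590.5, 546 and 583 to 457, 477 and 468 CPM (log2 -0.32, SE 0.03, adjusted p = 2.7e-08) and Hoxa7 from 21.4, 20.9 and 21.7 to 13.9, 18.1 and 16.1 CPM (log2 -0.44, SE 0.08). Cd34 fell by 0.15 (SE 0.03), and Kit, Flt3, Myc and Hlf were not called, with log2 changes from -0.07 to 0.03. Gata2 was the 1 called higher (log2 0.10), and lost the call without replicate 1 or 2 of the ATRA libraries, without replicate 2 or 3 of the untreated ones, or with no filter on low counts. Hoxa9 stood at 85.1, 76.5 and 78 CPM without and 67.6, 77.6 and 71.4 CPM with ATRA (log2 -0.17, SE 0.05, adjusted p = 0.019), with overlap between the groups, and its call was lost without replicate 1 or 3 of the ATRA libraries or replicate 1 of the untreated ones, and in limma-voom (adjusted p = 0.18). Meis1 had no count without ATRA and 3, 2 and 0 counts with it, and was not called, while its relative Meis2 rose from 20.8, 22.4 and 22.9 to 29.8, 30.6 and 31.8 CPM (log2 0.45, SE 0.07, adjusted p = 3.3e-05). The Hox list also holds Meis and Pbx genes. Of its 18 tested members 3 were called higher, all of them outside the Hox family (Meis2, Meis3 and Pbx2). In the same list 4 were called lower, and 2 without replicate 1 of the ATRA or of the untreated libraries.

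Ribosome biogenesis genes were called lower for 10 of 21 and higher for none, with a median log2 change of -0.12. Npm1, a chaperone of the nucleolus, was 2730.4, 2588 and 2633 CPM without and 2355, 2327 and 2277 CPM with ATRA (log2 -0.22, SE 0.03, adjusted p = 2.0e-05). Sterol synthesis genes were lower for 7 of 19, led by Sqle (log2 -0.20, SE 0.04). Of 20 genes of DNA replication 4 were lower, Rrm2 from 302, 308 and 304 to 261, 272 and 259 CPM among them (log2 -0.23, SE 0.03), whereas Mcm2 to Mcm7 and Pcna were not called. Of the mitosis genes, Top2a and Cdk1 were not called. In that list 3 of 20 were lower (1 without replicate 1 of the untreated libraries), beside 10.4% over all genes tested. None was called higher in edgeR's model of all 8 groups with every library and the filter as set, but 1 was under 7 of the 13 alternatives, among them another filter on low counts or none. Of 25 CDK inhibitors, D cyclins and p53 targets 5 were higher (3 without replicate 3 of the ATRA libraries) and 6 lower. Of the CDK inhibitors, Cdkn1a (log2 0.00) and Cdkn1b (0.27) were not called, and Cdkn2b was called higher. The call of Cdkn2b was lost without replicate 3 of the ATRA libraries or replicate 2 or 3 of the untreated ones. Sesn1, a p53 target, rose from 27.8, 27.7 and 26.1 to 46.1, 46.8 and 46.4 CPM (log2 0.75, SE 0.04, adjusted p = 4.5e-14). Pmaip1, the gene of NOXA, fell from 52.6, 52.7 and 49.1 to 36.9, 38 and 39 CPM (log2 -0.46, SE 0.06, adjusted p = 1.9e-06). In the BCL2 family 5 of 14 were higher and 2 lower, and 3 rather than 5 were higher without replicate 1 of the ATRA libraries or replicate 2 or 3 of the untreated ones. Bmf, a death-promoting member, rose from 6.07, 6.72 and 7.04 to 11.5, 11.2 and 10.3 CPM (log2 0.71, SE 0.09). None of 13 mitochondrially encoded genes was called by edgeR in the model of all 8 groups (median log2 change -0.29), while 8 were called lower with no filter on low counts and 2 with only the groups compared.

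Markers of other blood cells moved too, and their part in the results was not tested. Mast cell and basophil markers were called lower for 7 of 13 and higher for 2 (1 under 5 alternatives), with a summed level of 1907 to 1957 CPM without and 1678 to 1761 CPM with ATRA. Cpa3, a mast cell carboxypeptidase, made up the largest part of that sum. It stood at 1032, 1006 and 964 CPM without and 839.7, 839 and 775 CPM with ATRA (log2 -0.31, SE 0.04, adjusted p = 1.0e-06). Cma1, a chymase, fell by 1.01 (SE 0.16). Megakaryocyte markers were higher for 4 of 12 (summed level 186 to 192 CPM without, 200.4 to 218 CPM with), led by Clec1b, which stayed under 1 CPM. Erythroid markers were higher for 3 of 5 (14.2 to 16.7 against 23.3 to 28.0 CPM): Gata1 went from 7.66, 6.2 and 6.71 to 10.9, 10.1 and 11.6 CPM (log2 0.64, SE 0.11) and Hbb-bt from 1.17, 1.26 and 0.95 to 4.58, 3.86 and 4.15 CPM (log2 1.87, SE 0.22), while Slc4a1 and Hba-a1 were too low to be tested. Eosinophil (0.950 to 1.32 against 1.15 to 1.37 CPM) and B cell markers (3.26 to 3.40 against 4.25 to 4.72 CPM) stayed at a few CPM in sum, with Ms4a1 and Pax5 at 0 in all 6 libraries, and stromal markers summed to 28.6 to 31.3 CPM without and 23.4 to 24.3 CPM with ATRA, with Col1a2 lower and Col3a1, Dcn and Cdh5 at 0. T and NK cell markers summed to 36.5 to 37.9 CPM without and 29.8 to 34.0 CPM with ATRA, with Gzmb among them and Cd3g, Cd8a and Gzma at 0.

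The ATRA effect was then set beside that in H9M control cells, in which 1887 genes were called higher (12.9%) and 1808 lower (12.3%). The effects share no library. The difference between them was called for 2022 genes (13.8% of those tested), and 202 genes were called in opposite directions. Of the 277 genes higher past 2-fold in MN1 CTL cells, 91 were among the 287 higher past 2-fold in H9M (32.9% of the former list and 31.7% of the latter), and 119 were called higher there at any size. For the falls past 2-fold the overlap was 6 genes, 9.52% of the 63 in MN1 CTL and 5.66% of the 106 in H9M. Some of these genes could not be called in H9M. Among the falls Gzmb, Htr1b, Smpd3, Cyp2j6 and Cma1 had no count in any H9M CTL library, nor had Upk1b and Col6a3 among the rises. Dhrs3 rose by 0.70 against 1.83 in H9M (difference -1.14, SE 0.06, adjusted p = 2.5e-14) and Aldh1a3 by 0.58 against 2.14 (difference -1.56, SE 0.06, adjusted p = 1.5e-17). Tgm2 rose by 1.43 against 1.27, a difference of 0.17 (SE 0.06) that was not called (adjusted p = 0.086). Cyp26a1 reached 13.7, 16.8 and 13.2 CPM in treated H9M libraries, where the untreated ones also had no count. Of the genes called in opposite directions, St6gal1 fell in MN1 CTL cells (log2 -1.05) and rose in H9M ones (3.42), from 4.55, 5.25 and 3.92 to 48.6, 49.2 and 46.1 CPM, and Ccr2 fell by 0.91 here and rose by 0.52 there (difference -1.44, SE 0.12, adjusted p = 2.9e-10).

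**Figure D5:**
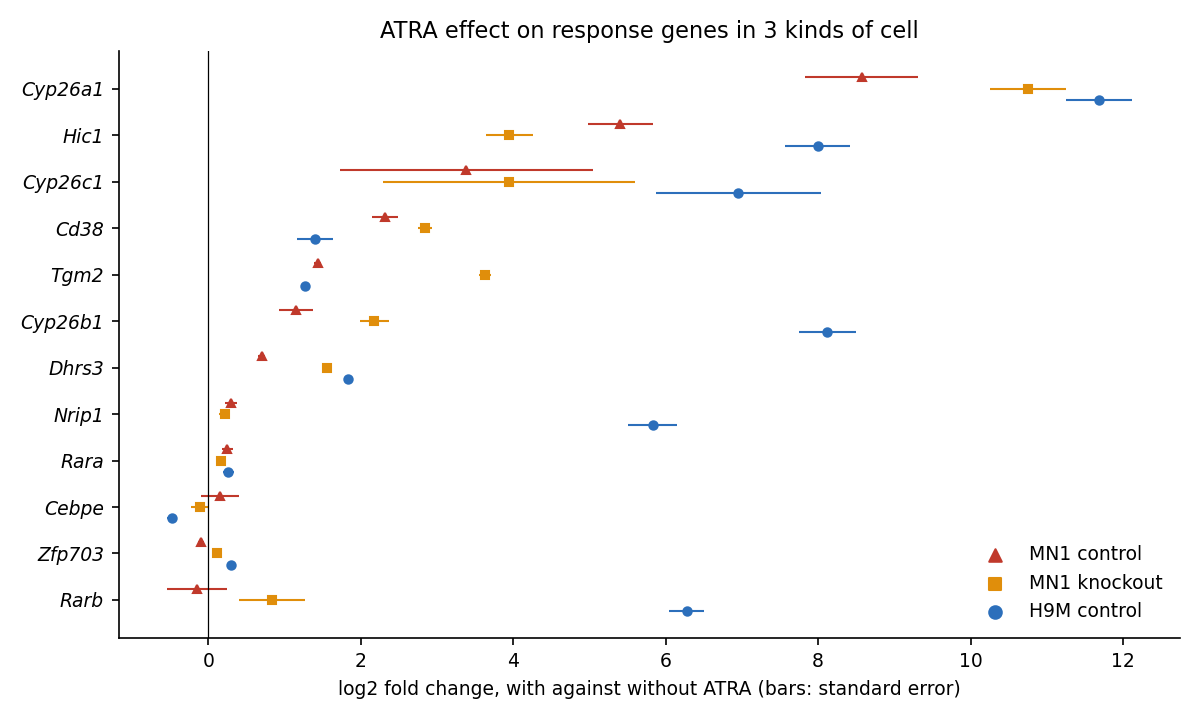
Log2 fold change with against without ATRA (x axis, bars are the SE defined in the text from the F value) of 12 of the 14 tested retinoic acid response genes in MN1 control cells (red triangles), MN1 LSD1 knockout cells (orange squares) and H9M control cells (blue circles). Rarb and Nrip1 lie farther right in H9M cells (6.28 and 5.83) than in either MN1 group, and Tgm2 has its largest change in MN1 knockout cells (3.63). Points of Cyp26a1 and Cyp26c1, and Cyp26b1 in H9M, start from at most 2 untreated counts over the group, so their position depends on the small count added in the fit.

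In LSD1 knockout cells of the MN1 model 1234 genes were called higher with ATRA (8.42%) and 1525 lower (10.4%). The difference from the effect in control cells was called for 407 genes (2.78%), and 33 genes were called in opposite directions. Of the 277 genes, 140 were also among the 248 higher past 2-fold in the knockout (50.5% and 56.5% of the lists), 188 were called higher there at any size and none lower. Among falls past 2-fold 18 were shared, 28.6% of 63 and 43.9% of 41. For Cyp26a1, treated knockout libraries held 9.47, 8.27 and 8.11 CPM, above all treated control libraries, while the untreated ones again had no count. Dhrs3 rose by 1.56 in the knockout (difference -0.86, SE 0.06, adjusted p = 3.0e-11) and Tgm2 by 3.63 (difference -2.20, SE 0.10, adjusted p = 1.1e-15). Tgm2 began from different levels, 68.8, 68.4 and 65.2 CPM in untreated control and 3.74, 3.37 and 3.2 CPM in untreated knockout cells. Rarb stood at 0.39, 0.321 and 0.367 CPM in treated knockout cells and was not called there either (log2 0.83, adjusted p = 0.2). Irf8 rose less in the knockout, by 0.38 against 1.40 (difference 1.02, SE 0.08, adjusted p = 7.6e-10), from 24.1, 25.2 and 24.6 CPM in untreated knockout cells, against 25.8, 22.3 and 23.8 CPM in treated control cells. P2rx7 also began higher, with 13.7, 13.8 and 14.3 CPM in untreated and 108, 115 and 105 CPM in treated knockout cells (difference 1.80, SE 0.20, adjusted p = 6.8e-07).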

How the data were processed

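RNA was extracted with a Qiagen RNeasy kit, and libraries were made with Illumina's TruSeq Stranded Total RNA kit and read in pairs on an Illumina HiSeq instrument, per the labels' protocols. The authors deposited 1 table of raw counts per gene for 24 libraries in 8 groups of 3, whose columns match the sample titles. STAR 2.5.3 and the build mm10 are named in the submitters' processing notes, whereas for the counting step no tool, annotation or strand setting is stated in the sources at hand. Overlapping and antisense genes may share reads. The table holds 48795 genes, and 48349 identifiers were given a symbol from a gene name table, 446 not; coordinates are from RefSeq's gene table (GRCm38.p6).

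From the deposited counts, genes were filtered with filterByExpr, scaled by TMM and fitted with edgeR 4.0.16 (quasi-likelihood F-test, R 4.3.3) in 1 model of the 8 groups. P-values were adjusted by Benjamini-Hochberg over the 14663 genes kept, and a call is an adjusted p under 0.05. Adjusted p-values in the text come from this test unless another tool or setting is named, and the 95% counting interval covers counting error only. The script was tested on simulated counts. Named genes are 7 fixed genes, the retinoid lists, the 25 largest rises and 25 largest falls with at least 5 CPM and no overlap between groups, up to 4 called genes per list and direction with the smallest p, and 5 differences per direction and comparison. The differences were taken from genes also called in MN1 CTL cells. A few list members outside that rule (such as Elane, Csf1r and Cybb) were named after their values were seen. Some genes that the rule names are not reported here, although the counts include them. The members and the 31 gene lists were chosen with earlier results of these data known. Alternatives were RLE scaling, other filters, DESeq2 1.42.0, limma-voom (limma 3.58.1), only the groups compared, a replicate block and leaving out each library.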

Additional observations from a re-analysis of the deposited data

Results flagged for a closer look

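The ATRA effect differed between MN1 control cells and other cells for 20 gene comparisons below, each by a test of the difference itself (edgeR's quasi-likelihood test, adjusted over all genes). They are the 5 largest in each direction of each comparison among genes that were also called in MN1 control cells. A mean of at least 5 CPM in at least 1 of the groups compared was required, and clone names and pseudogenes were left out. Rarb, with a difference of -6.43 from H9M control cells, was not called in MN1 control cells and is therefore not listed. Values are the log2 effect in MN1 control cells minus that in the other cells, and no explanation was tested.

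Against H9M control cells the difference was positive for Eln (13.31), Fbxo2 (5.43), Vat1l (4.76), Clu (3.33) and Cited4 (2.70). The first 4 of these rest on few H9M counts: Eln had 3, 3 and 3 counts without and 0 with ATRA, Fbxo2 9, 1 and 1 and then 0, Vat1l 1, 11 and 2 and then 0, and Clu 1, 2 and 4 and then 0, 1 and 0. The sizes of those differences therefore depend on the small count added in the fit. In MN1 control cells Vat1l fell as well, from 6.26, 7.2 and 6.91 to 5.24, 4 and 4.98 CPM, so its positive difference is not a rise with ATRA. Vat1l lost its call in limma-voom (adjusted p = 0.074), in edgeR with only the groups compared (adjusted p = 0.059), and without any 1 of the ATRA-treated H9M libraries or replicate 2 of the untreated ones (up to 0.20). Clu lost it with only the groups compared (adjusted p = 0.053), and without replicate 1 or 3 of the treated or replicate 2 or 3 of the untreated H9M libraries (up to 0.21). Fbxo2 lost it without replicate 1 of the treated (adjusted p = 0.051) or of the untreated H9M libraries (adjusted p = 0.21). Cited4, a partner of CBP and p300, was well counted in H9M cells, where it fell from 12.8, 13.4 and 14 to 5.62, 4.81 and 7.27 CPM, while in MN1 control cells it stood at 0.528, 0.678 and 1.08 CPM without and 1.44, 2.84 and 2.74 CPM with ATRA. The effect was smaller or opposite for Cyp26b1 (-6.97), Nrip1 (-5.53), St6gal1 (-4.47), Irs1 (-2.99) and Slc45a3 (-2.34). Untreated H9M libraries held 1, 0 and 1 counts of Cyp26b1, 1, 3 and 1 of Nrip1, 0, 0 and 4 of Irs1 and 0, 2 and 1 of Slc45a3, so St6gal1 is the 1 of the 5 with ample counts in every group. Slc45a3 lost its call with no filter on low counts (adjusted p = 0.072), in DESeq2 (adjusted p = 0.064), and without replicate 2 or 3 of the treated or replicate 1 or 3 of the untreated H9M libraries (0.062 to 0.14).

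Against MN1 knockout cells the effect was larger for Cmah (2.07), P2rx7 (1.80), Ifi202b (1.61), Napsa (1.56) and Cd300lf (1.30). All 5 had more RNA in untreated knockout than in untreated control libraries. Napsa, for example, stood at 10.8, 10.7 and 10.3 CPM there against 1.96, 2.71 and 2.42 CPM, and Ifi202b, an interferon-inducible gene, at 5.45, 5.49 and 5.01 CPM against 1.17, 1.42 and 0.524 CPM. Cd300lf lies within the span of Rab37 and may share reads with it. The effect was smaller or more negative for Tgm2 (-2.20), Chst15 (-1.72), Clu (-1.50), Lef1 (-1.33) and Ms4a3 (-1.07). Clu, the chaperone clusterin, rose from 14.2, 14.2 and 14.7 to 80, 90 and 83.6 CPM in the knockout and from 6.04, 5.65 and 6.84 to 11.5, 12.8 and 13.9 CPM in the control. Lef1, a Wnt pathway factor, fell from 2.15, 1.97 and 1.93 to 0.589, 0.992 and 0.951 CPM in control cells and stood at 6.29, 6.61 and 6.32 and then 7.05, 6.67 and 6.7 CPM in the knockout. The difference for Chst15 was no longer called without replicate 1 of the untreated control libraries or replicate 3 of the untreated knockout libraries.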

How the results depend on the processing

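Of the 7 counts of genes called, 6 stayed within 1.5 times under every alternative run, and the number called lower fell from 1530 to 1002 without replicate 1 of the untreated MN1 CTL libraries; the cause was not tested. Leaving out 1 library at a time gave 2374 to 2824 genes called (3199 with all), 1341 to 1428 higher, 1002 to 1397 lower, 250 to 270 higher and 49 to 62 lower past 2-fold, 1715 to 1989 differences from H9M and 290 to 386 from MN1 KO, with fewer libraries in each fit. Other tools called 3032 (DESeq2) and 3415 (limma-voom) genes. Of 186 named genes called, 152 kept the call in all their alternatives and 34 lost it in at least 1. Log2 changes that turned sign were those of genes not called: Ncoa2, -0.0163 without replicate 2 of the ATRA libraries and -0.0147 without replicate 1 of the untreated ones (range to 0.0213), Cebpe, -0.0493 without replicate 2 of the ATRA libraries (to 0.2736), and Rdh14, -0.0202 without replicate 3 of the ATRA libraries and -0.0157 without replicate 2 of the untreated ones (to 0.0928). Same-numbered libraries had correlations of -0.136, -0.151 and -0.07 in their deviations from the group means, and others reached 0.191. Deviations sum to 0 over the 3 libraries of a group, so these values cannot decide whether the replicate numbers in the titles pair the libraries. With a replicate block 3285 genes were called, 1689 higher and 1596 lower, 272 and 64 of them past 2-fold, with 2082 differences from H9M and 415 from MN1 KO. Precision is limited for the 112 genes raised past 2-fold that stayed under 1 CPM.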
